A study of Mus musculus with 15 samples.

Results

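The mitochondrial ribosomal protein genes were taken by name, as every gene of the deposited FPKM table whose symbol starts with Mrpl or Mrps followed by a digit. Symbols with "-ps", which mark pseudogenes, were left out (5 genes). The rule gave 78 genes of the 32479 in the table, and all 78 passed the filter on low counts, as did 18136 genes in all. RNA had been sequenced from submandibular glands of 15 mice in 3 groups of 5: NOD/LTJ mice given SJQYD (SJQYD), untreated NOD/LTJ mice (model) and untreated ICR mice (control). NOD mice are an inbred strain used as a model of Sjögren's syndrome, whose salivary glands become infiltrated by lymphocytes, and ICR mice are an outbred stock. The genotype of all 3 groups is given as WT, and SJQYD is known here only by its letters, with no dose, time or age. Model and control mice differ in strain as well as in disease, and these cannot be told apart. SJQYD and control mice differ in strain and in treatment. How the mice of a group were related or housed is not stated, so p-values measure the spread between these samples.

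Mitochondrial ribosomes translate the few messages encoded by mitochondrial DNA, all of which code for subunits of the respiratory chain and ATP synthase. Their RNA comes from mitochondrial DNA, while all of their proteins are encoded in the nucleus, made in the cytosol and imported. The small subunit reads the message and the large subunit joins the amino acids. Many of their proteins descend from bacterial ribosomal proteins, and others are found in mitochondrial ribosomes only. Acinar cells of the submandibular gland use respiration to drive the secretion of salt, water and protein.

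Of the 78 proteins, 26 belong to the small subunit and 51 to the large subunit. Mrps30 and Mrps18a are counted in the large subunit, where their proteins sit despite their names. The product of Mrps36 is now known as a subunit of the oxoglutarate dehydrogenase complex and was counted in neither. Of the 77 subunit genes, 46 code for counterparts of bacterial proteins and 31 for mitochondria-specific ones. They lie on 17 chromosomes, with 11 genes on chromosome 11.

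The promoters of the members were read for motifs, which the rule did not use. RefSeq promoter windows on GRCm38.p6, each running from 250 bases before to 50 bases after the annotated start, were found for 69 members. They were searched on both strands for NRF1 letters (10 in a row: GCGC, then A and any base, then GCGC), ETS letters (CCGGAAG) and YY1 letters (AAGATGGC), which are the core motifs of factors known to act on nuclear genes for mitochondrial proteins. The 5 windows below are shown for the most abundant member (Mrps21), a member with NRF1 letters that was lower in SJQYD than in control glands (Mrpl39), one with ETS and YY1 letters (Mrps12), the member that was lower in both NOD/LTJ groups (Mrpl16) and the only member that was higher (Mrps17). Capitals mark NRF1, ETS and YY1 letters, and a stretch that reads as the motif on both strands is capitalised once.
Mrps21 promoter, chr3:95871465-95871764, minus strand: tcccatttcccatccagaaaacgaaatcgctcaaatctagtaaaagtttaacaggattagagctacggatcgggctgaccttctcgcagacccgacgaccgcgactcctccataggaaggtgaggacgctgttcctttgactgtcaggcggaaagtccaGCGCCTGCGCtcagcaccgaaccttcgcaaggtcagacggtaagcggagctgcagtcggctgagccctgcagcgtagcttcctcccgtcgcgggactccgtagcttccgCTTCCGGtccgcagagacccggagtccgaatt
Mrpl39 promoter, chr16:84735195-84735494, minus strand: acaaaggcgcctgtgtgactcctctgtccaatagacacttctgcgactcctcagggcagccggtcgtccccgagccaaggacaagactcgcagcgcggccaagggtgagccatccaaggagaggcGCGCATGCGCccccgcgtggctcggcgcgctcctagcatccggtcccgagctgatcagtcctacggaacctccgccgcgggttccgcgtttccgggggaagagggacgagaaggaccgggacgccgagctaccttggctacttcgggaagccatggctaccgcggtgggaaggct
Mrps12 promoter, chr7:28741772-28742071, minus strand: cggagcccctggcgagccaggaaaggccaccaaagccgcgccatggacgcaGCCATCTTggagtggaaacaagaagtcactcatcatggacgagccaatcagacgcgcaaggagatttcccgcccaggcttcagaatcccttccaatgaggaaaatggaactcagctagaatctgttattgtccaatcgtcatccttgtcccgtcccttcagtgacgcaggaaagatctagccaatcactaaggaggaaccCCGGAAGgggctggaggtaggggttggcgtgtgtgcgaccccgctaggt
Mrpl16 promoter, chr19:11770165-11770464, plus strand: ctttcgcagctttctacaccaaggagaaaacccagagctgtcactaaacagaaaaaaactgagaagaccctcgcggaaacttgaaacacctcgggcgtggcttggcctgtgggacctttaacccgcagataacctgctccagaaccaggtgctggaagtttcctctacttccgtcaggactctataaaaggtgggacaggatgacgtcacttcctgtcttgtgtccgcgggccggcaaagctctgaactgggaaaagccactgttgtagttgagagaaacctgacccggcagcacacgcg
Mrps17 promoter, chr5:129715247-129715546, plus strand: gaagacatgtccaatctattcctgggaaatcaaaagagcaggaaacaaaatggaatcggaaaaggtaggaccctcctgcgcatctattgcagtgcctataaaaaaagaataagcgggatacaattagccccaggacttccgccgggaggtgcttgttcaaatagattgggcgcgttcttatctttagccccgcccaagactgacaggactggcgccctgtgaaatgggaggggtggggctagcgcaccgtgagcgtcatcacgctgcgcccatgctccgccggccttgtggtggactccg

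NRF1 letters were in the windows of 13 of the 69 members (18.8%), against 9.88% of the 12414 tested genes with a window and 5.19% of all 27025 genes of the promoter table. ETS letters were in those of 26 members (37.7%), against 17.7% of tested genes and 9.93% of all genes. YY1 letters were in those of 12 members (17.4%), against 4.66% and 3.19%. At least 1 of the 3 motifs was present for 43 members (62.3%), against 28.4% of tested genes and 16.4% of all genes. No NRF1, ETS or YY1 letters were in the Mrpl16 and Mrps17 windows printed above, and a match or its lack says nothing about binding. The members were not richer than tested genes in GC box letters (GGGCGG, 49.3% against 63.7%), CCAAT letters (39.1% against 42.4%) or TATAAA (7.25% against 9.81%), and the median G and C content of their windows was 58.7%, against 59.7% for tested genes.

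**Figure D1:**
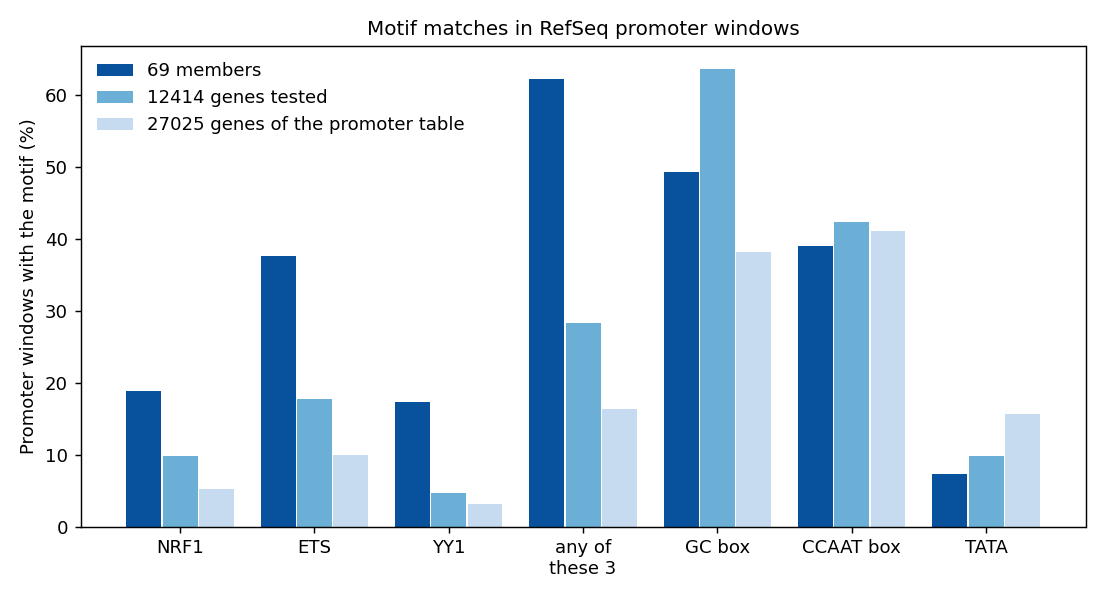
Share of genes, in percent, with each motif in a RefSeq promoter window (either strand), for 69 members, 12414 tested genes and 27025 genes of the promoter table. The members' bars are the tallest for NRF1, ETS and YY1 letters (62.3% with any of these 3), and not for GC box, CCAAT or TATA letters.

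Some members share a start region with another gene. A protein-coding neighbour on the opposite strand started within 1000 bases upstream of 18 of the 78 members (23.1%), against 9.20% of 14688 tested protein-coding genes. Pairs of opposite-strand genes whose start regions overlap were not counted. Distances between the starts of the counted pairs ran from 26 bases, between Mrpl54 and Apba3, to 935 bases, between Mrpl41 and Pnpla7. Mrps12 lay 172 bases from Sars2, which codes for the mitochondrial seryl-tRNA synthetase, and Mrps27 lay 81 bases from Ptcd2. Members were also grouped by their motifs. In SJQYD against control glands the median log2 fold change was -0.10 for the 13 members with NRF1 letters and -0.08 for the 56 without. It was -0.04 for the 26 with ETS letters and -0.10 for the 43 without, and 0.01 for the 12 with YY1 letters and -0.10 for the 57 without. In model against control the medians with and without were -0.185 and -0.076 for NRF1, -0.135 and -0.065 for ETS, and -0.085 and -0.082 for YY1. For ETS the order was thus reversed. In SJQYD against model they were -0.014 and -0.022 for NRF1, 0.033 and -0.033 for ETS, and 0.081 and -0.043 for YY1.

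Total counts per library ran from 39510018 to 68694263, and the lowest count of any member in any library was 80. Mucl2, an acinar mucin-like gene of the gland, took 15.5% to 46.4% of counts in SJQYD libraries, 25.8% to 45.6% in model libraries and 42.2% to 53.8% in control libraries. All 6 acinar and all 7 granular duct markers of the submandibular gland were detected, with median log2 fold changes of -0.55 and -0.61 in model against control and -0.45 and -0.63 in SJQYD against control. Of these 13 only Bhlha15, an acinar transcription factor, was called, as lower in model than in control glands (-0.57, adjusted p = 0.0320 in edgeR). Transcripts of 4 parotid genes, from a neighbouring gland, made up 6.50% of counts in SJQYD 1, 16.0% in model 3 and 4.17% in control 2. They made up 2.11% in model 1, 0.623% in control 1 and at most 0.308% in the remaining libraries. Summed sublingual markers (4 tested genes) ran from 81.7 to 39700 CPM (counts scaled to a common library size) in SJQYD libraries (median 22900), from 3220 to 31800 CPM in model libraries (median 7610) and from 30.6 to 39800 CPM in control libraries (median 1360). Summed adipocyte markers (5 tested genes) ran from 13.7 to 276 CPM in SJQYD, from 14.9 to 400.0 CPM in model and from 7.56 to 29.3 CPM in control libraries. Xist was at 1.01 CPM in SJQYD 3 and at 162 to 270 CPM in the other 14 libraries. The labels give no sex of the mice. Summed B cell markers (6 genes) ran from 9.80 to 50.1 CPM in SJQYD libraries, from 33.0 to 78.7 CPM in model libraries and from 0.0985 to 72.5 CPM in control libraries. Summed T cell markers (6 genes) ran from 5.42 to 59.6 CPM in SJQYD, from 13.5 to 97.4 CPM in model and from 3.15 to 41.2 CPM in control libraries. Of 7 tested skeletal muscle markers, 3 (Tnnt3, Ryr1 and Eno3) were called higher in model than in control glands, and the same 3 in SJQYD than in control glands. Tnnt3 and Ryr1 were at or under 0.753 CPM in every library, and Eno3 was at 7.80 to 34.8 CPM. The other muscle markers, among them Ckm at -0.07 and 0.08, were not called. The part of these tissues and cell types in the members' values was not tested. In bulk RNA fewer cells of a type and less RNA per cell cannot be told apart.

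Levels between genes were compared per length, as FPKM (fragments per unit of gene length and of sequencing depth). The mean FPKM of a member over the 15 libraries ran from 0.540 for Mrps10 to 45.3 for Mrps21, with a median of 4.91. Mrps21 and Mrps28, of the small subunit, and Mrpl54, Mrpl14 and Mrpl12, of the large, were the 5 highest, at 45.3, 20.1, 31.4, 21.1 and 20.7 FPKM. Mrpl12 is the counterpart of the bacterial stalk protein that contacts translation factors. The 5 lowest were Mrps10 (0.540 FPKM), Mrpl3 (0.571), Mrps22 (0.590), Mrpl16 (0.890) and Mrps31 (0.988). FPKM depends on the gene length used, which was not stated.

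Large-subunit genes had a median of 5.54 FPKM and small-subunit genes of 3.94 FPKM. Counterparts of bacterial proteins had a median of 5.34 FPKM and mitochondria-specific ones of 4.14 FPKM, and the ranges overlapped over most of their length. By group, the median FPKM of the 78 members was 5.20 in SJQYD, 5.25 in model and 4.07 in control glands. This FPKM scale is set by total reads, and it moved all genes: the median log2 fold change of all tested genes was 0.19 for model against control and 0.21 for SJQYD against control with log2(FPKM + 1), against 0.03 and 0.04 with TMM-scaled counts. As shares of all counts, the 78 members took 0.148% ± 0.0487 in SJQYD, 0.135% ± 0.0218 in model and 0.0991% ± 0.0130 in control libraries (SD, n = 5 each). On the TMM scale, which is set by the bulk of genes and not by the most abundant ones, their summed level was 1227 ± 51.2 CPM in SJQYD, 1211 ± 40.5 CPM in model and 1265 ± 90.5 CPM in control glands (SD, n = 5 each). TMM-scaled CPM are used for all comparisons between groups that follow.

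**Figure D2:**
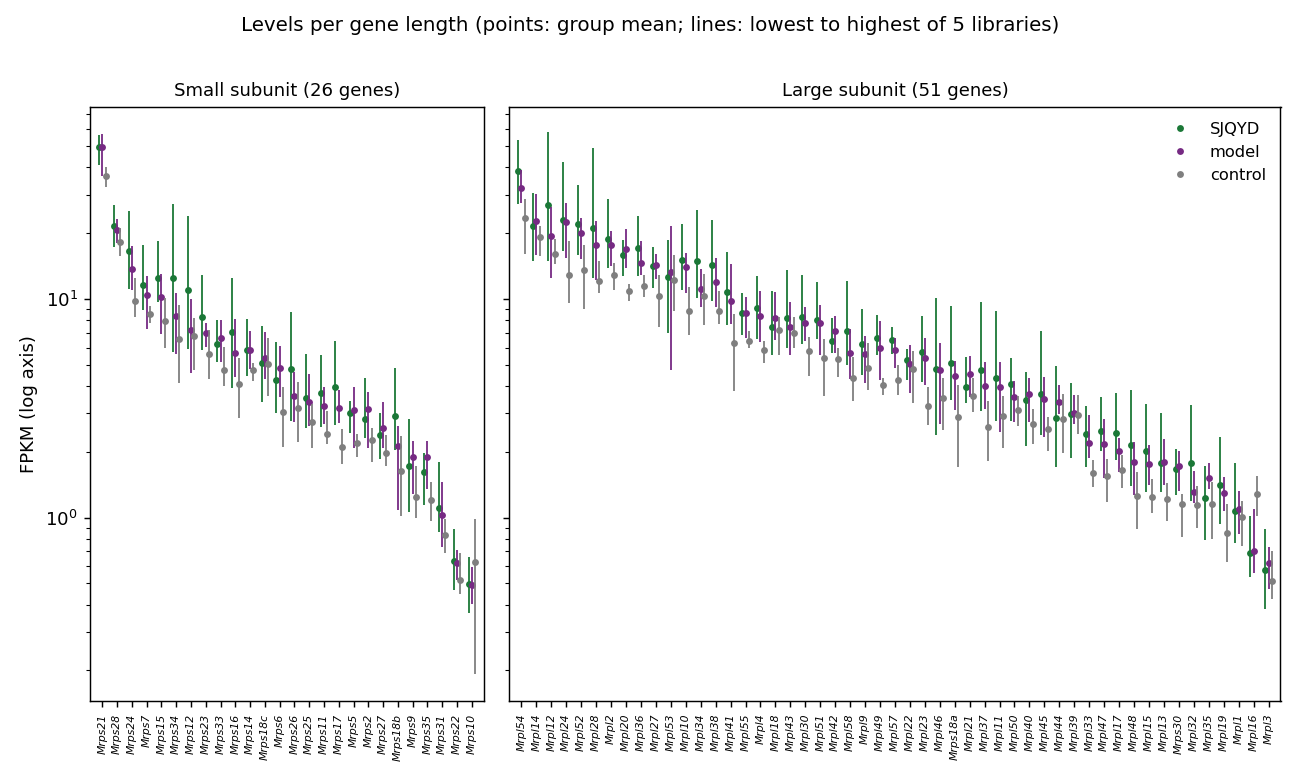
FPKM of each small-subunit and large-subunit gene on a log axis, in order of mean level, with group means as points and the lowest to highest of 5 libraries as lines, for SJQYD, model and control glands. Mean levels run from 45.3 FPKM for Mrps21 to 0.540 FPKM for Mrps10, and control points sit below the others for most genes but not for Mrpl16.

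The question of model against control was how glands of the diseased strain differ from those of ICR mice. Of the 78 members, 1 was called at an adjusted p under 0.05 by edgeR's quasi-likelihood test with Benjamini-Hochberg adjustment, and 77 were not. That is 1.28% of members, against 5.07% of all 18136 genes tested, of which 466 (2.57%) were higher and 454 (2.5%) lower. Of the 9530 tested genes in the range of the members' mean CPM, 6.68% were called. The member was Mrpl16, a large-subunit protein that lies near the site of peptide bond formation and has a bacterial counterpart.

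Mrpl16 had 2.07, 1.73, 2.30, 2.27 and 2.52 CPM in SJQYD libraries 1 to 5, 3.06, 1.83, 1.87, 2.83 and 2.23 CPM in model libraries, and 6.38, 4.99, 7.46, 4.26 and 7.34 CPM in control libraries. All 10 NOD/LTJ libraries were below all 5 control libraries, and those of SJQYD and model overlapped. The gene lies at chr19:11770391-11774960 on the plus strand. In model against control glands it fell by 1.36 on the log2 scale (SE 0.21, adjusted p = 0.00189 in edgeR), and in SJQYD against control glands it fell by 1.48 (SE 0.21, adjusted p = 0.000395). Between SJQYD and model the log2 fold change was -0.12 (95% interval -0.55 to 0.31, adjusted p = 0.843).

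The genes beside Mrpl16 had the following values. Stx3, which begins just after Mrpl16 ends and codes for a syntaxin of vesicle fusion, had a log2 fold change of -0.29 in model against control glands (adjusted p = 0.245), and Patl1 had one of 0.06 (adjusted p = 0.877). Ms4a6d, on the other side and ending at base 11604849, rose by 1.38 (adjusted p = 0.0296). Also nearby, Ms4a4d was at -0.65 (adjusted p = 0.186), Olfr1420 at -1.07 (adjusted p = 0.520) and Ms4a6b at 2.185 (adjusted p = 0.111). In SJQYD against control glands Ms4a4d was called lower (-0.96, adjusted p = 0.0402 in edgeR) and Ms4a6d higher (1.27, adjusted p = 0.0264). Stx3, Patl1, Olfr1420 and Ms4a6b were not called there. No near-identical copy of Mrpl16 and no other annotated gene on its exons was found. Mrpl16 was called in all 15 fits that left out 1 library and with every other treatment of the counts, and with FPKM its model against control value kept its sign at -0.42, with adjusted p = 0.0601 when no low genes were filtered out.

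Across all members the median log2 fold change of model against control was -0.07, beside 0.03 for all tested genes. Above 0 were 23 of 78 members (29.5%), against 53.3% of all genes. For the 9530 tested genes in the members' CPM range the median was -0.018, with 47.5% above 0. With log2(FPKM + 1) the members' median was 0.31 beside 0.19 for all genes. The members' median minus that of all genes was -0.101 with TMM-scaled counts, -0.102 with RLE-scaled counts, 0.125 with log2(FPKM + 1) and -0.004 with log2(FPKM + 0.1), so that its sign differed between the count and FPKM measures and, at the last of these, was close to 0. The members' median of -0.07 on the TMM scale was -0.121 without control 2, -0.115 without control 4 and -0.132 without SJQYD 1, model 3 and control 2 together, and lay between -0.121 and -0.046 with any 1 library left out. By subunit, the medians were -0.14 for 26 small-subunit and -0.05 for 51 large-subunit genes on the TMM scale. By descent they were -0.06 for 46 counterparts of bacterial proteins and -0.07 for 31 mitochondria-specific ones.

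After Mrpl16, the smallest p-values were those of Mrpl39, Mrpl34, Mrpl24 and Mrpl43, at log2 fold changes of -0.43, -0.36, 0.33 and -0.41 and adjusted p of 0.0729, 0.0780, 0.105 and 0.111 in edgeR. Mrpl34, a short protein with a bacterial counterpart, had 6.71, 6.53, 8.13, 7.41 and 6.93 CPM in model libraries, against 9.01, 8.36, 8.13, 10.4 and 9.93 CPM in control libraries. Its model and control libraries met at 8.13 CPM without overlapping beyond rounding. Groups did not overlap for 3 members in all, each lower in model (Mrpl16, Mrpl32 and Mrpl34), which is 3 of 78 beside 5.77% of all genes in either direction and 2.71% lower in model. Mrpl24, whose protein sits near the tunnel through which new peptides leave in bacteria, had the largest positive fold change, with 54.9, 58.1, 57.8, 42.8 and 52.0 CPM in model libraries, against 42.1, 48.0, 40.5, 39.8 and 40.8 CPM in control libraries.

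SJQYD against model asked what the treatment changed in NOD/LTJ glands. No member was called, against 2.75% of all genes (346 or 1.91% higher and 152 or 0.838% lower). Of tested genes in the members' CPM range, 3.95% were called. DESeq2 called 0 members as well, and 9 members (11.5%) had an unadjusted p under 0.05 in edgeR, against 16.2% of all tested genes and 21.7% of those in the members' CPM range. Their log2 fold changes ran from -0.41 for Mrpl35 to 0.42 for Mrps12, a counterpart of a bacterial decoding-site protein, which was at 0.229 without SJQYD 1. The median over the 78 members was -0.01, beside -0.03 for all genes and -0.01 for those in the members' CPM range. Above 0 were 37 members.

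How closely these data bound a change was read from the intervals. The 95% interval of the SJQYD against model fold change lay within 1.5-fold in either direction for 66 of 78 members (84.6%), against 32.1% of all tested genes and 53.3% of the 9530 tested genes in the members' CPM range. For model against control it did so for 59 members (75.6%), against 30.6% and 51.0%. For SJQYD against control it did so for 57 members (73.1%), against 26.3% and 43.9%. The median mean CPM of the members was above that of the genes in their CPM range, at 14.5 against 10.2. For Mrps21, the most abundant member, the SJQYD against model interval ran from -0.34 to 0.24, and for Mrpl10, whose protein forms the base of the stalk, it ran from -0.18 to 0.19. For the other 12 members in this comparison, a change of 1.5-fold lies within the interval.

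Mrpl35 was the member whose SJQYD and model libraries did not overlap, 1 of 78 beside 5.5% of all genes in either direction and 2.29% lower in SJQYD. It had 4.56, 5.72, 5.63, 4.30 and 5.01 CPM in SJQYD libraries, against 5.87, 6.29, 7.22, 7.23 and 7.01 CPM in model libraries. The log2 fold change was -0.41 (SE 0.14, adjusted p = 0.142 in edgeR). Mrpl44, which carries a fold like that of RNA-cutting enzymes of the RNase III family, came next by p, at -0.40 (SE 0.15, adjusted p = 0.186). Mrps6, a small-subunit counterpart of a bacterial protein, was at -0.27 (SE 0.12, adjusted p = 0.267).

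Mrpl34 and Mrpl32 had the smallest p-values among members with a positive SJQYD against model fold change. Mrpl34 had 9.84, 9.30, 8.12, 7.99 and 8.12 CPM in SJQYD libraries, beside the model and control values given above, and its fold change was 0.28 on the log2 scale (SE 0.11, adjusted p = 0.221). Mrpl32, whose protein is cut to its final form by a mitochondrial protease, had 10.4, 7.59, 7.99, 8.78 and 7.55 CPM in SJQYD libraries, 7.25, 5.99, 6.33, 7.30 and 7.85 CPM in model libraries and 8.73, 8.07, 8.35, 8.96 and 8.00 CPM in control libraries. For Mrpl32, SJQYD 1 lay above all control libraries, SJQYD 4 within their range and the other 3 below it. Neither change passed the threshold.

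**Figure D3:**
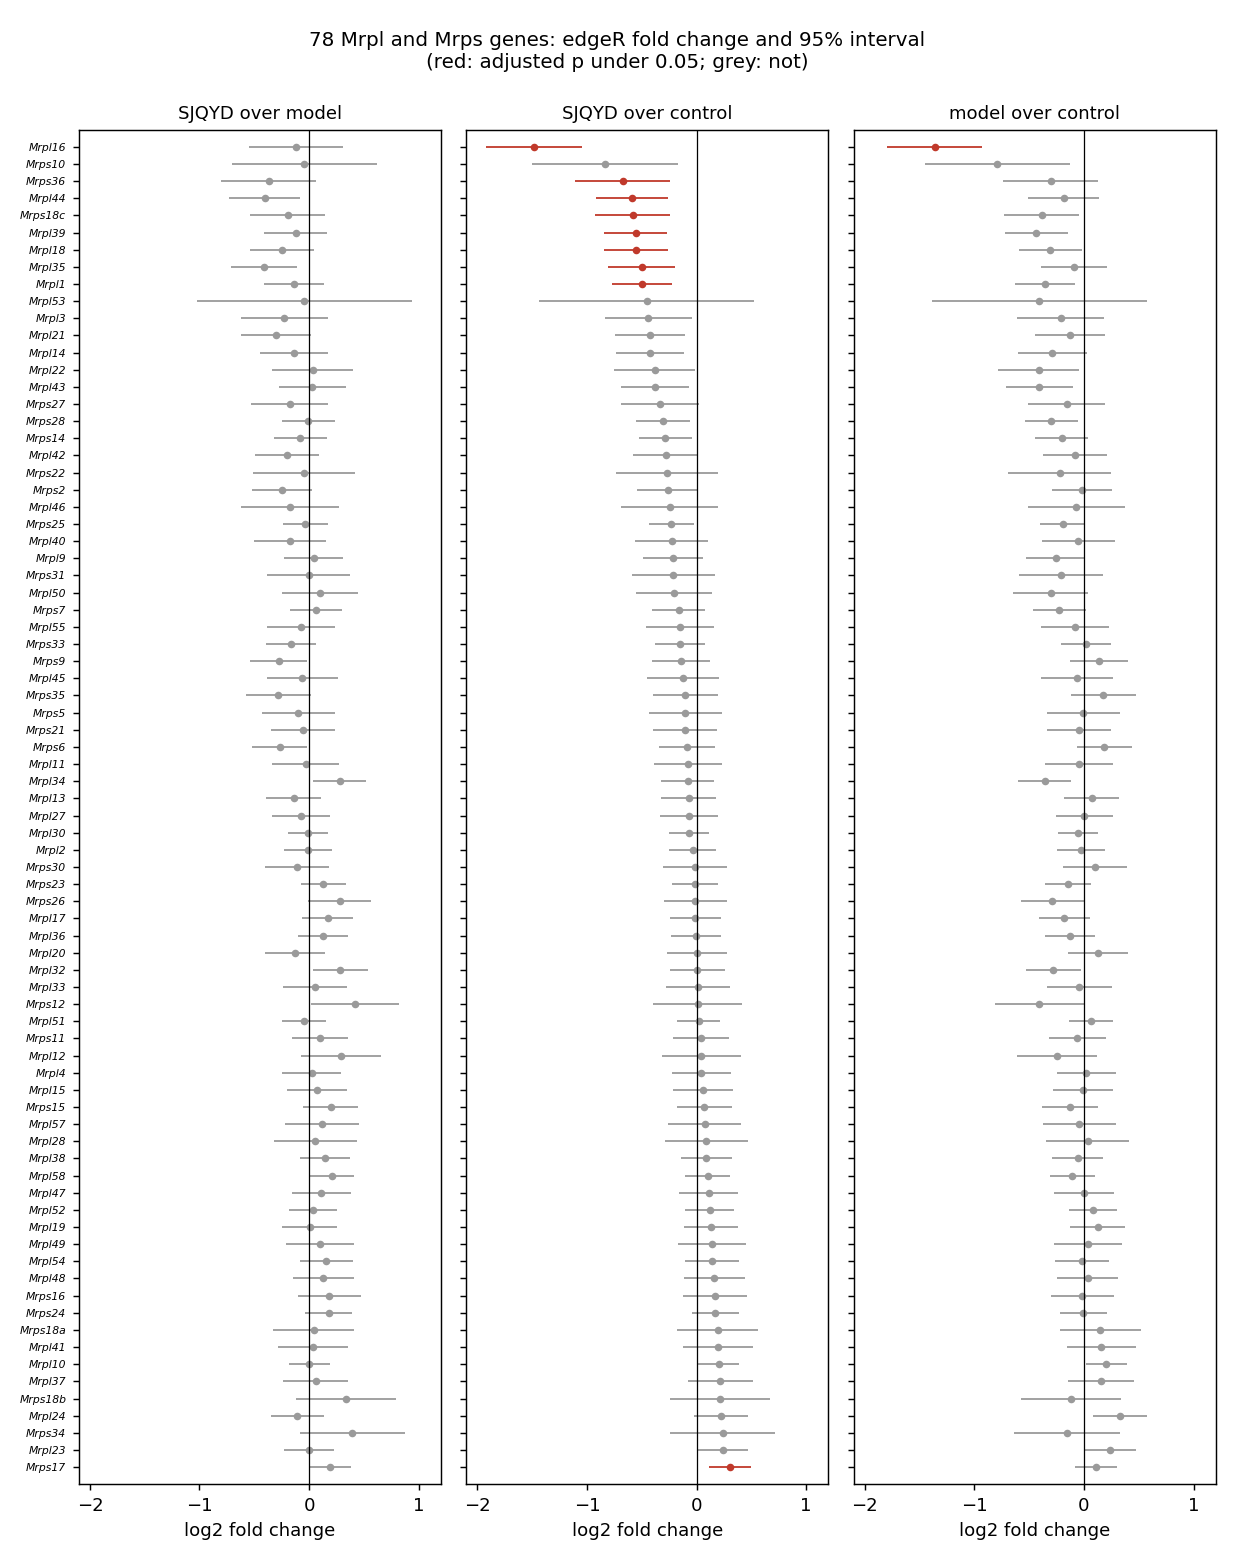
edgeR log2 fold changes (points) and 95% intervals (lines) of all 78 members for SJQYD over model, SJQYD over control and model over control, in the order of the SJQYD over control values, with members past an adjusted p of 0.05 in red. No member is red in SJQYD over model, 9 are in SJQYD over control and 1 (Mrpl16) in model over control.

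SJQYD against control sets strain and treatment together against ICR glands, and shares its libraries with both comparisons above. Here 9 members were called, 1 higher and 8 lower. That is 11.5% of members, against 11.1% of all genes (947 or 5.22% higher and 1070 or 5.9% lower), so that the total share was near that of all genes. It was below the 15.0% called among the 9530 tested genes in the members' CPM range, of which 615 were higher and 812 lower. The 8 lower members were Mrpl16, Mrpl39, Mrpl18, Mrpl1, Mrpl44, Mrpl35 and Mrps18c of the ribosome and Mrps36 of oxoglutarate dehydrogenase, and the higher one was Mrps17 of the small subunit. The median log2 fold change of the 78 members was -0.07 (-0.043 without control 1), beside 0.04 for all genes. For the tested genes in the members' CPM range it was 0.001. With log2(FPKM + 1) the members' median was 0.36, beside 0.21 for all genes. With log2(FPKM + 0.1) it was 0.471, beside 0.463, so that the gap on the FPKM scale depended on the constant added. Of the 26 small-subunit genes 1 was higher and 1 lower, and of the 51 large-subunit genes 6 were lower. Of the counterparts of bacterial proteins 1 of 46 was higher and 5 lower, and of the mitochondria-specific genes 2 of 31 were lower.

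Mrpl39, a mitochondria-specific protein of the large subunit, had 6.71, 7.85, 8.96, 6.19 and 7.70 CPM in SJQYD libraries, 7.04, 9.52, 6.73, 8.46 and 8.96 CPM in model libraries, and 11.9, 9.35, 10.1, 12.2 and 11.5 CPM in control libraries. All SJQYD libraries were below all control libraries, and 1 model library, at 9.52 CPM, was above the lowest control library. In SJQYD against control glands Mrpl39 fell by 0.56 on the log2 scale (SE 0.14, adjusted p = 0.0151 in edgeR). It was called in all 15 fits that left out 1 library.

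Mrpl18 and Mrpl1 are counterparts of bacterial proteins, of which L18 binds a small ribosomal RNA and L1 forms a mobile stalk where spent tRNA leaves. Mrpl18 had 9.69, 9.69, 11.1, 10.1 and 10.8 CPM in SJQYD libraries, 13.3, 11.2, 8.86, 15.6 and 11.8 CPM in model libraries, and 15.1, 12.4, 16.8, 13.8 and 17.2 CPM in control libraries. Mrpl1 had 4.87, 4.16, 4.22, 5.19 and 4.16 CPM in SJQYD libraries, 5.05, 4.83, 4.66, 5.82 and 4.50 CPM in model libraries, and 6.16, 5.38, 6.95, 6.76 and 6.62 CPM in control libraries. For both genes SJQYD and control libraries did not overlap, and model libraries spanned the gap. In SJQYD against control glands Mrpl18 fell by 0.55 (SE 0.14, adjusted p = 0.0174) and Mrpl1 by 0.49 (SE 0.13, adjusted p = 0.0213) on the log2 scale.

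Mrpl44 had 5.20, 4.05, 5.49, 4.02 and 3.56 CPM in SJQYD libraries, 5.22, 5.07, 6.48, 6.73 and 6.07 CPM in model libraries, and 6.32, 6.99, 5.39, 7.70 and 7.20 CPM in control libraries. SJQYD 3 and control 3 overlapped, at 5.49 and 5.39 CPM. Mrpl44 fell by 0.59 on the log2 scale in SJQYD against control glands (SE 0.15, adjusted p = 0.0214). Mrps18c, 1 of 3 members named for the bacterial protein S18, had 5.21, 5.85, 6.35, 4.79 and 4.84 CPM in SJQYD libraries, 6.74, 5.21, 5.34, 7.90 and 5.78 CPM in model libraries, and 7.58, 5.92, 7.61, 9.46 and 9.87 CPM in control libraries. Only control 2, at 5.92 CPM, lay within the SJQYD range, and Mrps18c fell by 0.58 (SE 0.16, adjusted p = 0.0300). The other members named for S18, Mrps18a and Mrps18b, were not called in any comparison.

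Mrpl35 had 6.49, 5.51, 7.27, 7.42 and 9.03 CPM in control libraries, beside the SJQYD and model values given above, and fell by 0.50 on the log2 scale in SJQYD against control glands (SE 0.14, adjusted p = 0.0330). Mrps36 had 3.53, 6.27, 6.53, 3.64 and 6.62 CPM in SJQYD libraries, 7.50, 8.31, 5.55, 6.46 and 6.47 CPM in model libraries, and 8.87, 5.60, 9.11, 9.65 and 9.13 CPM in control libraries. SJQYD 1 and SJQYD 4 were low among SJQYD libraries, and control 2 was low among control libraries. Mrps36 fell by 0.67 in SJQYD against control glands (SE 0.21, adjusted p = 0.0448).

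Mrps17 was the only member called higher in any comparison on the TMM scale. It had 26.7, 25.0, 22.4, 22.4 and 28.5 CPM in SJQYD libraries, 22.0, 22.4, 20.4, 22.7 and 21.9 CPM in model libraries, and 22.1, 19.2, 20.8, 20.1 and 19.2 CPM in control libraries. The lowest SJQYD library lay just above the highest control library, at 22.4 and 22.1 CPM. In SJQYD against control glands it rose by 0.30 on the log2 scale (SE 0.09, adjusted p = 0.0410). Groups did not overlap for 7 members in this comparison, with Mrps17 and Mrpl10 higher and Mrpl1, Mrpl16, Mrpl18, Mrpl21 and Mrpl39 lower in SJQYD, beside 10.1% of all genes (5.07% higher and 5.0% lower).

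**Figure D4:**
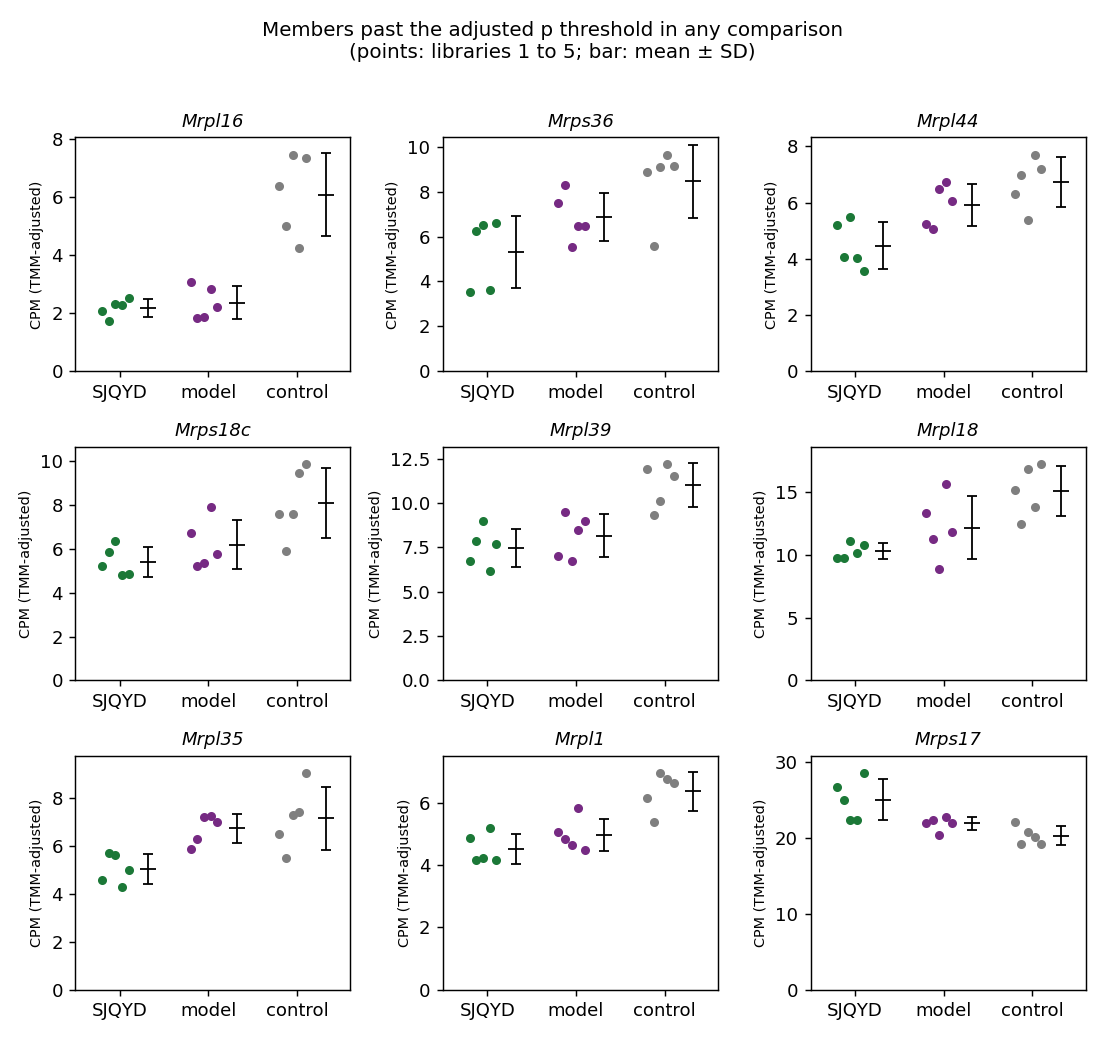
TMM-adjusted CPM of the 9 called members in each SJQYD, model and control library (points, libraries 1 to 5 from left to right), with mean ± SD. Mrpl16 is at 1.73 to 3.06 CPM in all NOD/LTJ libraries and at 4.26 to 7.46 CPM in control libraries, while the other 8 members differ less and model libraries often lie between.

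Of the 9 calls in SJQYD against control, Mrpl16 and Mrpl39 held in every fit that left out 1 library. Mrpl18 lost its call without control 5 (adjusted p = 0.0507), and Mrpl1 without control 3 or SJQYD 2 (up to 0.0528). Mrpl44 lost it without control 4 or 5 or SJQYD 2 or 4 (up to 0.0539). Mrpl35 lost it without control 3, 4 or 5 or SJQYD 1, 4 or 5 (up to 0.0967), and Mrps18c without control 1, 4 or 5 or SJQYD 1, 4 or 5 (up to 0.0846). Mrps17 lost it without control 2, 3, 4 or 5, model 1 or 5 or SJQYD 1, 2 or 5 (up to 0.0958), and Mrps36 without control 1, 3, 4 or 5, model 1 or 5 or SJQYD 1, 2 or 4 (up to 0.102). On the FPKM scale, where all genes shifted upward, the fold changes of Mrpl1, Mrpl18, Mrpl35 and Mrpl39 lay between -0.01 and 0.06 and were not called, and Mrpl16 was the only member called lower.

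SJQYD 1, model 3 and control 2, the libraries richest in parotid transcripts, were left out, while model 1, at 2.11%, stayed in. Then 3 members were lower in model than in control glands (Mrpl16, Mrpl34 and Mrps12) among 1489 genes called. None was called in SJQYD against model among 192 genes, and 8 were lower in SJQYD than in control glands among 1951 genes, with Mrps17 at 0.27 (adjusted p = 0.112). Without SJQYD 3, the library low in Xist, 1 member was called in model against control among 828 genes. None was called in SJQYD against model among 388 genes, and 9 in SJQYD against control among 1752. These counts of members were the same as with all libraries.

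The spread between mice of a group was read for each member. The median within-group SD of a member was 0.21 on the log2 CPM scale, against 0.26 for tested genes in the members' CPM range and 0.38 for all tested genes. It was below the median of genes in that CPM range for 61 of 78 members, and below that of all genes for 75. Members were also more abundant than the genes in that range, with a median mean CPM of 14.5 against 10.2. The part of level in the spread was not tested. Mrpl53, Mrps10, Mrps34 and Mrps18b varied most, with SDs of 0.78, 0.56, 0.39 and 0.36. All 4, and other members, have a gene of like or shared sequence that could take part of their counts: 33 members share exon bases with another annotated gene, and 18 have a near-identical copy elsewhere (at least 95% identity over at least 300 bases).

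Mrpl53 is a mitochondria-specific protein of the large subunit, and 88.0% of its exon bases are also exon of Gm42688, a protein-coding gene annotated on the same strand of chromosome 6 that spans it. Mrpl53 had 524, 497, 361, 1020 and 783 counts in SJQYD libraries, 824, 265, 890, 1376 and 407 in model libraries, and 628, 447, 844, 628 and 791 in control libraries. Gm42688 had 1868, 551, 975, 313 and 493 counts in SJQYD libraries, 636, 1121, 576, 229 and 786 in model libraries, and 281, 680, 86, 656 and 387 in control libraries. Libraries with high counts for one gene tended to have low counts for the other, as in model 2 and model 4. Summed, the within-group SD was 0.12 in place of 0.78. The summed level was 22.8 ± 1.60 CPM in SJQYD, 21.2 ± 2.02 CPM in model and 23.4 ± 1.95 CPM in control glands (SD, n = 5 each), with a log2 fold change of 0.10 for SJQYD against model (adjusted p = 0.652) and -0.14 for model against control (adjusted p = 0.413).

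Mrps10, the lowest member by FPKM and a counterpart of a bacterial protein, has a processed pseudogene, Gm18736, with 97.9% identity over 573 bases. Mrps10 had 3.43, 3.04, 4.16, 5.23 and 4.75 CPM in SJQYD libraries, 4.23, 3.84, 4.75, 4.33 and 4.08 CPM in model libraries, and 3.11, 7.62, 13.2, 9.41 and 3.39 CPM in control libraries. Control libraries 1 and 5 lay at the level of NOD/LTJ libraries, while controls 2, 3 and 4 were above all of them. The pseudogene had 126, 46, 3, 139 and 174 counts in control libraries 1 to 5, fewest in the library where Mrps10 was highest, and 93 to 244 counts in the 10 NOD/LTJ libraries. Summed with its pseudogene, Mrps10 had a log2 fold change of -0.50 in model against control (adjusted p = 0.131) and -0.56 in SJQYD against control (adjusted p = 0.0680), in place of -0.79 and -0.83 alone (adjusted p = 0.151 and 0.0971). The SD within groups was 0.31 in place of 0.56. None of these values passed the threshold. Without control 3, Mrps10 alone was at -0.473 in model against control and at -0.516 in SJQYD against control. Without control 1 or control 5, its SJQYD against control value passed the threshold, at up to -1.016.

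Mrps18b and its pseudogene Gm13552, with 99.8% identity over 417 bases, had a summed SD of 0.27 in place of 0.36. Mrps34, for which no near-identical copy was found, shares 63.4% of its exon bases with Mapk8ip3 on the opposite strand and 37.0% with Nme3 on the same strand. Mrps34 had 36.0, 20.4, 18.5, 28.1 and 15.0 CPM in SJQYD libraries, 19.5, 19.9, 19.4, 16.6 and 14.4 CPM in model libraries, and 23.4, 17.0, 14.1, 16.7 and 29.0 CPM in control libraries. Its SJQYD against control fold change of 0.24 was -0.01 without the libraries rich in parotid transcripts and 0.044 without SJQYD 1 alone. It lay between 0.044 and 0.409 with any 1 library left out, and also moved by over 1.5 times without SJQYD 5, control 3 or control 5. Whether counting used strand is not stated. Summing members with their copies left 9 members called in SJQYD against control among 2018 genes, and 1 in model against control among 922.

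**Figure D5:**
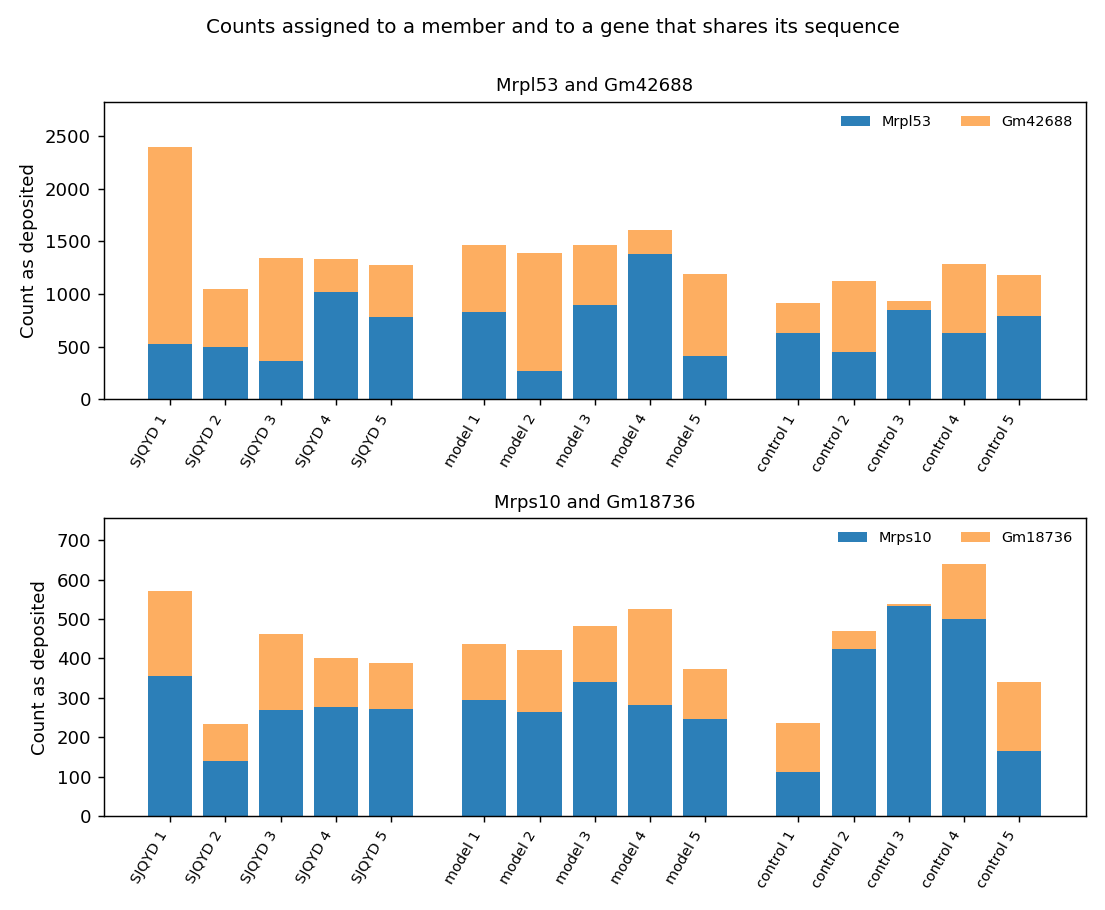
Deposited counts, stacked, of Mrpl53 with Gm42688 (top) and of Mrps10 with Gm18736 (bottom) in each SJQYD, model and control library. The split between the stacked genes differs between libraries of a group, as in model 2 (265 and 1121) and model 4 (1376 and 229) for Mrpl53 and Gm42688.

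Genes of the same pathway were read from lists, whose counts stand beside the 5.07% of all genes called in model against control, 2.75% in SJQYD against model and 11.1% in SJQYD against control. Of 5 tested mitoribosome subunits under other names, 2 were higher in SJQYD than in control glands, 1 in model than in control glands, and none was lower. Gadd45gip1, a large-subunit protein near the peptide exit, rose by 0.39 in model against control glands (SE 0.10, adjusted p = 0.0408) and by 0.45 in SJQYD against control glands (SE 0.10, adjusted p = 0.0120). Ptcd3, an RNA-binding protein of the small subunit, was at 21.6 ± 2.94 CPM in SJQYD, 15.8 ± 1.70 CPM in model and 13.0 ± 1.92 CPM in control glands (SD, n = 5 each). It rose by 0.73 in SJQYD against control glands (SE 0.13, adjusted p = 0.00191), and its SJQYD against model value was 0.45 (SE 0.13, adjusted p = 0.0674).

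Of 17 translation factors, 1 was lower in model than in control glands, 1 was higher in SJQYD than in model glands, and 1 was higher and 1 lower in SJQYD than in control glands. Rmnd1, an inner-membrane protein needed for mitochondrial translation in human cells, had 4.44 to 5.94 CPM in SJQYD libraries (median 5.29), 3.59 to 5.81 CPM in model libraries (median 4.47) and 8.02 to 24.5 CPM in control libraries (median 13.9). It fell by 1.66 in model against control glands (SE 0.25, adjusted p = 0.00189) and by 1.48 in SJQYD against control glands (SE 0.25, adjusted p = 0.00161). Tsfm, the factor that recharges the elongation factor Tufm, had 10.7 to 17.8 CPM in SJQYD libraries (median 11.1), 7.14 to 8.47 CPM in model libraries (median 7.61) and 6.85 to 9.79 CPM in control libraries (median 8.26). All SJQYD libraries were above all others. Tsfm rose by 0.69 in SJQYD against model glands (SE 0.15, adjusted p = 0.0186) and by 0.61 in SJQYD against control glands (SE 0.15, adjusted p = 0.0158).

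Of 25 assembly and RNA modification factors, 1 was higher and 2 lower in model than in control glands, none was called in SJQYD against model, and 2 were higher and 2 lower in SJQYD than in control glands. Gtpbp10, a GTPase of large-subunit assembly, was at 2.33 ± 0.662 CPM in SJQYD, 2.83 ± 0.224 CPM in model and 5.75 ± 1.24 CPM in control glands (SD, n = 5 each). It fell by 1.02 in model against control glands (SE 0.20, adjusted p = 0.00991) and fell by 1.304 in SJQYD against control glands (SE 0.20, adjusted p = 0.000963). Noa1, also a GTPase of assembly, fell by 0.69 and 0.57 in these comparisons (adjusted p = 0.0279 and 0.0389). Mettl17, which acts on the assembly of the small subunit, rose by 0.41 and 0.56 (adjusted p = 0.0430 and 0.00559). Mrm1, a methyltransferase of the large ribosomal RNA, rose by 0.49 in SJQYD against control glands (adjusted p = 0.0490).

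Of 17 mitochondrial tRNA synthetases, Yars2 fell by 0.61 in model against control glands (adjusted p = 0.0482) and Lars2 rose by 0.96 in SJQYD against control glands (adjusted p = 0.0329). Lars2 was at 771 ± 259 CPM in SJQYD, 612 ± 243 CPM in model and 395 ± 67.9 CPM in control glands (SD, n = 5 each). Group means of all the other synthetases were at most 26.8 CPM (Tars2 in SJQYD). Sequence shared with other genes was searched for the members only, so whether it adds to the Lars2 counts was not tested. No synthetase was called in SJQYD against model, where Ears2 and Pars2 had the smallest p-values, at log2 fold changes of 0.64 and -0.75 (adjusted p = 0.0635 and 0.0943 in edgeR). Of 11 regulators of mitochondrial transcription and biogenesis, Ppargc1b, a coactivator of mitochondrial genes, rose by 1.37 in SJQYD against control glands (SE 0.39, adjusted p = 0.0345), at levels of 0.857 ± 0.276 CPM in SJQYD, 0.837 ± 0.392 CPM in model and 0.332 ± 0.101 CPM in control glands (SD, n = 5 each). The other 10 regulators were not called in any comparison. Yy1, the factor for which the YY1 letters are named, was at -0.25 in model against control (adjusted p = 0.164 in edgeR) and at -0.29 in SJQYD against control (adjusted p = 0.0750), and Gabpa, an ETS factor, was at -1.23 in model against control (adjusted p = 0.184), 0.82 in SJQYD against model (adjusted p = 0.481) and -0.41 in SJQYD against control (adjusted p = 0.673).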

How the data were processed

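The labels' protocols describe RNA from submandibular glands, selected with oligo-dT beads, made into dUTP strand-marked libraries with molecular identifiers, and read from both ends over 150 bases. The tools edgeR, DESeq2, StringTie 1.3.4d, UMI-tools, HISAT2 2.0.4 and cutadapt 1.9 are listed in the submitters' processing notes without role or order, as is the build mm9. Coordinates of 28337 of 32385 genes (87.5%) and of 69 members equal those of GRCm38 in GENCODE release 21 for mouse, so GRCm38 is given. The authors deposited whole-number counts for 55401 genes (22922 with no count) and FPKM values with the same counts for the other 32479. Counting parameters, strand use and the removal of duplicates are not given in the sources used here.

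Counts were fitted with R 4.3.3 and edgeR 4.0.16: default filter by group (18136 genes), TMM factors, robust quasi-likelihood fit to all 15 libraries with 1 mean per group, and Benjamini-Hochberg adjustment over all genes tested. CPM are TMM-adjusted. The SD within groups was taken on log2(CPM + 0.05). A gene was called at an adjusted p under 0.05. The fitting steps were run on simulated counts, in which changes as small as those of most members were not simulated. Alternatives were RLE factors, no filter, DESeq2 1.42.0, limma 3.58.1 on log2(FPKM + 1) and log2(FPKM + 0.1), only the 2 groups compared, a replicate block, and libraries left out. Summing members with near-identical copies or a read-through gene was chosen after seeing the data. Libraries of 1 group differed by a chi-square of at least 74.05 per gene, so none was a duplicate.

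The members and lists were chosen with earlier results of these data known. Members named in the text are those called, the 5 smallest p-values and 3 largest fold changes in each direction per comparison, and the 5 highest and lowest by FPKM. Mrpl53 was named after its values were seen, as were the non-overlapping members Mrpl21 and Mrpl10, the S18 homologue Mrps18a, and the members named for a neighbouring gene.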

Additional observations from a re-analysis of the deposited data

Results flagged for a closer look

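For 7 of the 87 combinations of a named member and a group, 1 library stood apart from the other 4 by more than Dixon's 95% critical value for its group size, where chance gives about 1 in 20. Mrpl3 was at 5.92 CPM in model 4, with the other model libraries at 3.84 to 4.31 CPM. Mrpl12 was at 56.6 CPM in SJQYD 1, with the others at 29.8 to 37.1 CPM. Mrpl23 was at 32.5 CPM and Mrps31 at 3.04 CPM in SJQYD 2, with the others at 25.9 to 27.0 and 3.60 to 3.78 CPM. Mrpl24 was at 48.0 CPM and Mrps36 at 5.60 CPM in control 2, with the others at 39.8 to 42.1 and 8.87 to 9.65 CPM. Mrpl10 was at 19.6 CPM in control 4, with the others at 22.4 to 22.9 CPM. SJQYD 1 and control 2 are among the libraries rich in parotid transcripts, whose part in these values was not tested.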

How the results depend on the processing

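No member was called in SJQYD against model under any alternative run. Mrpl16 kept its calls under every alternative run but unfiltered log2(FPKM + 1) in model against control, where Mrpl20 was the 1 member called, as higher. Members called in SJQYD against control were 4 with no filter and 16 (15 higher) with log2(FPKM + 0.1), against 9, and 4 to 10 with 1 library left out. In model against control they were 3 with DESeq2, 2 with log2(FPKM + 1), 4 with log2(FPKM + 0.1) and 3 without the parotid-rich libraries, against 1, and 1 to 2 with 1 library left out. The members' median for SJQYD against control was 0.364 with log2(FPKM + 1), filtered or not, and 0.471 with log2(FPKM + 0.1). For model against control it was 0.313, filtered or not, and 0.407. All tested genes had medians of 0.463 and 0.411 in these comparisons with log2(FPKM + 0.1). With log2(FPKM + 1) and log2(FPKM + 0.1), 96.5% and 96.9% of all calls in SJQYD against control were higher (47.0% on the TMM scale). In model against control 95.8% and 97.0% were higher (50.7%).

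Genes called in SJQYD against control were 3397 and 4126 with log2(FPKM + 1) and log2(FPKM + 0.1), against 2017, and 1252 to 2641 with 1 library left out, the lowest without control 5. In SJQYD against model they were 987 with DESeq2, 68, 57 and 48 with limma on log2(FPKM + 1), log2(FPKM + 0.1) and unfiltered log2(FPKM + 1), and 192 without the parotid-rich libraries, against 498, and 333 to 543 with 1 library left out. In model against control they were 1779 with DESeq2, 2078 with log2(FPKM + 0.1), 555 with unfiltered log2(FPKM + 1), 440 from the 2 groups alone and 1489 without the parotid-rich libraries, against 920, and 357 (without model 2) to 1813 (without control 2) with 1 library left out.

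With log2(FPKM + 1), filtered or not, and log2(FPKM + 0.1), these fold changes turned positive: in SJQYD against control Mrpl1 (0.037 and 0.052), Mrpl18 (0.009 and 0.007), Mrpl35 (0.039 and 0.058) and Mrpl39 (0.000 with log2(FPKM + 1) only), in model against control Mrpl34 (0.111 and 0.122), Mrpl39 (0.029 and 0.040) and Mrpl43 (0.058 and 0.062), and in SJQYD against model Mrpl53 (0.049 and 0.067). With the filter, each of the values against control lies below the shift of all genes on that scale. Mrpl53 was also at 0.191 without the parotid-rich libraries, at 0.105 summed with Gm42688, and at -0.355 to 0.318 with 1 library left out. Mrps34 was at -0.011 in SJQYD against control without the parotid-rich libraries.

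No pairing by replicate number was seen: deviations of same-numbered libraries correlated at -0.226 to 0.16. Differently numbered libraries were not set beside them, so these correlations cannot exclude pairing. With the replicate number as a block, 5 members were called in SJQYD against control among 1799 genes. In SJQYD against model 0 were called among 401 genes, and in model against control 1 among 896. Mrpl53 was then at 0.066 in SJQYD against model.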
